A study of Mus musculus with 18 samples.

Results

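The clustered protocadherin genes are 58 genes that lie head to tail in 3 neighbouring clusters on mouse chromosome 18, all on the plus strand. They were chosen by gene symbol as every Pcdha, Pcdhb and Pcdhg gene of the alpha, beta and gamma clusters. The rule used symbols alone, but it was set with earlier results of these data known. The alpha cluster holds 14 of them, the beta cluster 22 and the gamma cluster 22, among the 21959 genes listed for mouse embryonic fibroblasts (MEFs) and the 51826 listed for liver. All 58 were found in both tables by gene identifier. The identifier ENSMUSG00000007440 is called Pcdha10 in the MEF table and Pcdha11 in the liver table, and it is called Pcdha10 here.

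Clustered protocadherins are cadherin-like proteins of the cell surface that bind copies of themselves on neighbouring cells, and neurons use their combinations to tell their own branches from those of other neurons. In the alpha and gamma clusters each gene has a variable first exon with its own promoter, which is spliced to constant exons shared by the whole cluster, whereas each beta gene is complete in itself. The promoters are opened in different combinations by the insulator protein CTCF and the cohesin ring, and DNA methylation and the chromatin protein SMCHD1, which also acts on the inactive X chromosome, hold them silent. The last genes of the alpha and gamma clusters, Pcdhac1, Pcdhac2, Pcdhgc3, Pcdhgc4 and Pcdhgc5, are the C-types, which differ in sequence and control from the other members.

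The study deleted repeat B of Xist, the noncoding RNA that silences an X chromosome in female cells, and compared homozygous mutants (RepB-/-) with WT. Repeat B draws Polycomb complexes to the inactive X, and the protocadherin clusters are not on the X. Counts of 12 RNA-seq libraries were used, 3 RepB-/- and 3 WT libraries of primary MEFs, which the labels place in tail, and 3 RepB-/- and 3 WT libraries of liver; 6 brain libraries were not analysed here. The letters B and W of the library labels were read as RepB-/- and WT. The labels give no strain, sex or age, and nothing says whether the 3 libraries of a group came from separate animals or cultures. P-values thus measure the spread between these libraries, which in MEFs may be technical. Liver libraries of the same genotype differed in fetal markers and in Y-linked counts, as given below, so their spread is not technical alone.

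The RepB-/- MEF libraries held between 20005541 and 20587556 counts and the WT MEF libraries between 11540344 and 16347806, and the liver libraries held between 37682201 and 51542709. Although they were the deeper libraries, the RepB-/- MEFs had 29.2% to 29.6% of listed genes at 0, against 19.6% to 21.7% in WT. Xist has no row among the MEF genes, and a whole-gene count of Xist does not check a deletion of repeat B, so the genotype labels were not checked by the targeted gene. Levels are given in CPM, a gene's count scaled to a common library size after TMM scaling. Fibroblast markers summed to between 9682 and 17186 CPM in MEFs, where hepatocyte markers summed to at most 2.33 CPM, and hepatocyte markers summed to at least 115735 CPM in every liver. The liver library labelled RepB-/- replicate 2 carried 4342 counts of Y-linked genes and 4 counts of Xist, where the other livers carried at most 1 Y-linked count and between 14494 and 26345 counts of Xist. Y-linked genes are expressed in males and Xist in females, and a male has a single X chromosome, so these counts go against a homozygous Xist genotype for the library labelled RepB-/- replicate 2. It was kept under its label, and liver results are also given without it. Replicate 1 of both genotypes of liver stood apart by fetal hepatoblast markers (Afp, Dlk1, H19, Igf2 and Gpc3), which summed to 5970 CPM in RepB-/- and 4753 CPM in WT and to at most 20.2 CPM in the other 4 livers.

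In the GRCm39 coordinates of the MEF table the alpha cluster spans chr18:37063237-37320714, the beta cluster chr18:37397991-37657532 and the gamma cluster chr18:37794846-37974926. How much of a gene can be counted without ambiguity differs between the clusters. In the GENCODE M21 annotation, the median alpha gene shared no base with another gene in 46.4% of its exon length, the median gamma gene in 55.3% and the median beta gene in 100%. Overlaps with antisense genes touched 4 alpha, 1 beta and 8 gamma members. How reads in shared exons were counted is not given in the sources used here, so values of alpha and gamma genes may hold reads of their neighbours and are less certain than those of beta genes.

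In MEFs the gamma cluster was the most abundant, the beta cluster came next and the alpha cluster was close to silent. Over all members, the summed gamma level was 146 ± 10.1 CPM in WT (SD, n = 3), the beta level 49.99 ± 3.99 CPM and the alpha level 2.11 ± 0.595 CPM. Pcdhgc3 was the leading gene on the scale of CPM per kb of exon, at 8.16 in WT and 8.78 in RepB-/-, followed in WT by Pcdhgc5 at 2.78, Pcdhgb2 at 1.96 and Pcdhb17 at 1.90. Per kb of unshared exon, Pcdhgc3, Pcdhgc5 and Pcdhgb2 led the WT levels in the same order. Pcdhgc3 and Pcdhgc5 together with Pcdhgc4 made up between 45.4% and 49.7% of the gamma sum in each of the 6 MEF libraries. Fewer cells that express a gene and less RNA per cell cannot be told apart in these bulk libraries.

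The comparison of RepB-/- with WT MEFs asks which of the clustered protocadherin genes, all autosomal, differed once repeat B was gone. Of the beta genes tested 8 were higher and the rest were not called, gamma genes divided into a group that was higher and a group that was lower, and no alpha gene passed the test. In edgeR's quasi-likelihood test, with p-values adjusted by Benjamini-Hochberg across all 13306 tested genes, 12 members were higher, 6 were lower and 21 were not called, out of 39 members with enough counts to test. Of all genes tested, 19.4% were called higher and 19.7% lower, 39.1% in either direction. Among the members 30.8% were called higher and 15.4% lower, and the median log2 fold change was 0.48, beside a median of 0.00 over all genes tested. Every RepB-/- library exceeded every WT library in 19 of the 39, and lay below every WT library in 7, where 26.4% and 25.8% of all genes did so. At an unadjusted p under 0.05 stood 20 of the 39, beside 47.7% of all genes.

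**Figure D1:**
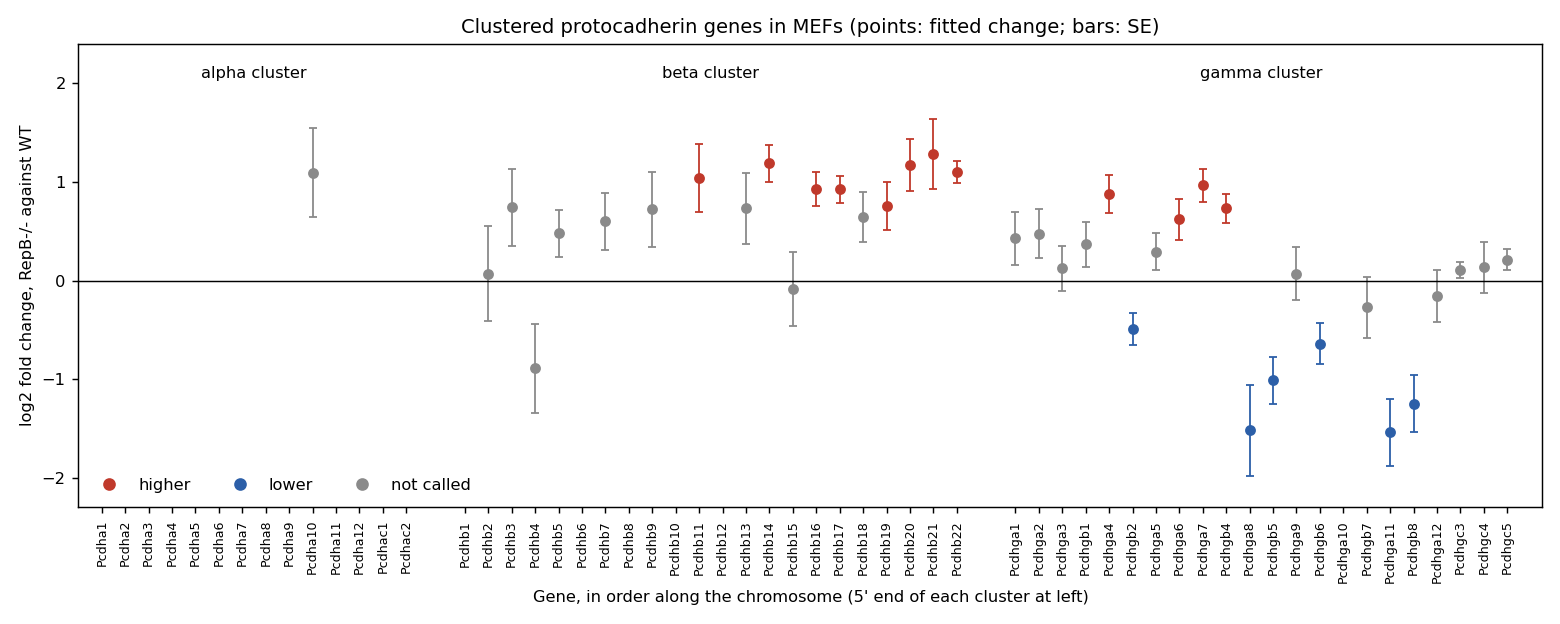
Log2 fold change of RepB-/- against WT in MEFs (vertical axis, with SE) for the clustered protocadherin genes in their order along the chromosome (horizontal axis). Red points were higher, blue points lower and grey points not called, and genes without a point were not tested. The 8 called beta genes are all higher, and in the gamma cluster the 4 higher genes lie among the first 10 while 5 of the 6 lower genes lie among the 9 that follow.

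The summed level of the beta cluster separated the genotypes. It was 98.7, 92.0 and 86.0 CPM in the RepB-/- libraries and 45.4, 52.3 and 52.3 CPM in the WT libraries, without overlap, a ratio of 1.85. Of the 22 beta genes, 17 could be tested, and the median log2 fold change of those tested was 0.74. Of these 17, 8 were higher, or 47.1%, and none was lower, beside 19.4% higher and 19.7% lower of all genes tested. The other 9 were not called, and 7 of these 9 had a log2 fold change above 0.

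Pcdhb22, the last gene of the cluster and its most abundant member by CPM, had the smallest adjusted p of all members. It stood at 20.9, 20.3 and 19.7 CPM in RepB-/- and at 9.46, 8.90 and 9.98 CPM in WT. All 3 mutant libraries lay above all WT libraries, with a log2 fold change of 1.10 ± 0.11 (SE) and an adjusted p of 1.09e-05 by edgeR. Its exons overlap those of its neighbour Pcdhb21 in part, and Pcdhb21 moved the same way by 1.29 ± 0.35 (adjusted p = 0.0109).

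Pcdhb17 was the beta gene with the highest level per kb. Its 3 RepB-/- libraries gave 15.04, 17.0 and 18.5 CPM and its WT libraries 7.70, 9.71 and 9.09 CPM. The groups did not overlap, and the log2 fold change was 0.92 ± 0.13 (adjusted p = 0.000165, edgeR). Pcdhb14 gave 9.17, 10.1 and 7.04 CPM in RepB-/- against 3.93, 3.59 and 4.04 CPM in WT, a log2 fold change of 1.19 ± 0.19. Pcdhb16 gave 10.9, 10.7 and 10.7 CPM against 4.33, 6.99 and 5.52 CPM, and differed by 0.93 ± 0.17. Both were again separate between the genotypes, with adjusted p of 0.000312 for Pcdhb14 and 0.000901 for Pcdhb16 by edgeR.

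Pcdhb20 was higher by 1.17 ± 0.26 on the log2 scale, Pcdhb11 by 1.04 ± 0.34 and Pcdhb19 by 0.76 ± 0.24. These are less abundant genes, with WT means of 1.89 ± 0.569, 1.62 ± 0.494 and 2.76 ± 0.585 CPM (SD, n = 3). Without RepB-/- replicate 1, whose Pcdhb11 level of 4.94 CPM exceeded the 2.74 and 2.43 CPM of the other RepB-/- libraries, the count of higher beta genes fell from 8 to 5, and Pcdhb11, Pcdhb19 and Pcdhb21 were those no longer called. The log2 fold change of Pcdhb11 was then 0.67.

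The called beta genes all lay in the second part of the cluster. Among the first 10 beta genes 6 could be tested and none was called, with a median log2 fold change of 0.54 and a range from -0.89 for Pcdhb4 to 0.74 for Pcdhb3. Among the 12 from Pcdhb11 to Pcdhb22, 11 were tested and 8 were higher, with a median of 0.93, where 19.4% of all genes tested were higher. This division was drawn after the values were seen and was not tested. The first 10 had WT means of at most 2.62 CPM, and the SEs of the 6 tested ran from 0.24 to 0.48.

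**Figure D2:**
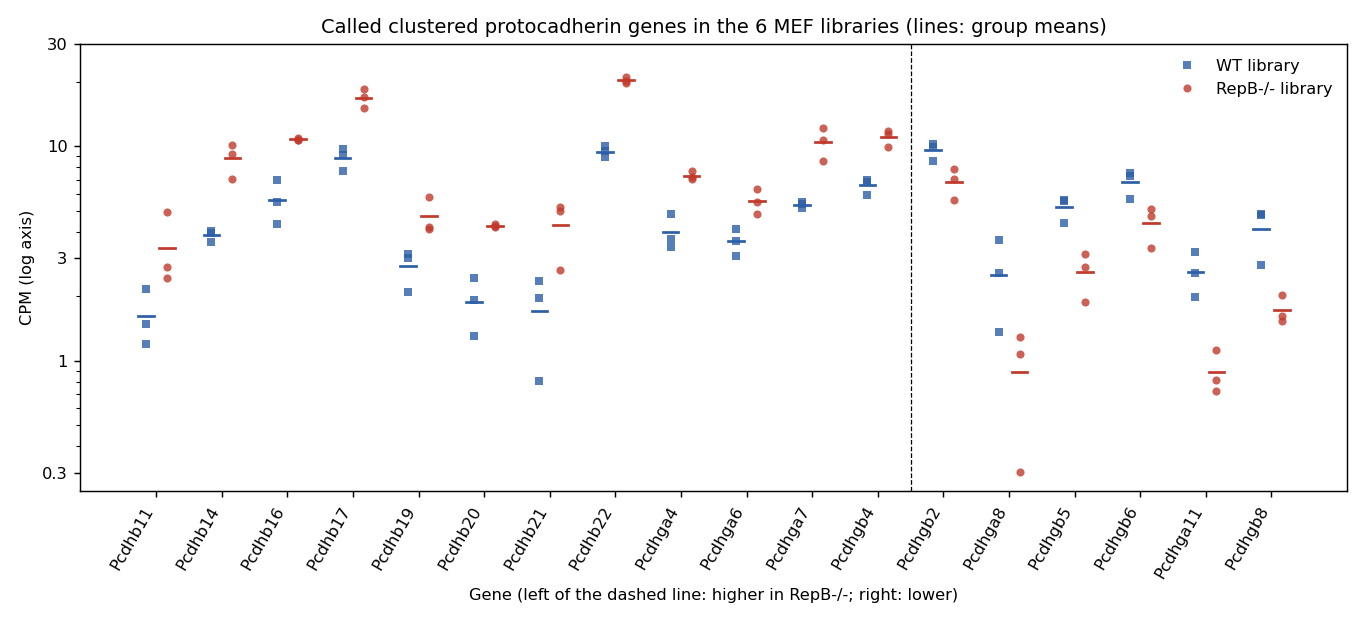
Level of the 18 called members in each MEF library, in CPM on a log axis, with WT as blue squares, RepB-/- as red circles and group means as lines. The 12 genes left of the dashed line are higher in RepB-/- and the 6 to its right are lower, and in each of the 18 the libraries of the genotypes do not overlap.

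Gamma genes moved in both directions while the sum of the cluster did not separate the genotypes. Its summed level was 168, 166 and 140 CPM in RepB-/- and 134, 150 and 153 CPM in WT, a ratio of 1.09 with overlap between the groups. Of its 22 genes, 21 were tested, 4 were higher, 6 were lower and 11 were not called. These are 19.05% higher and 28.6% lower, beside 19.4% and 19.7% of all genes tested. The remaining gene, Pcdhga10, was listed at 0 in all 12 libraries of both tissues.

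The higher gamma genes were Pcdhga7, Pcdhga4, Pcdhgb4 and Pcdhga6. Pcdhga7 stood at 12.2, 10.7 and 8.51 CPM in RepB-/- and at 5.13, 5.38 and 5.52 CPM in WT. Every mutant library was above every WT library, with a log2 fold change of 0.97 ± 0.17 (adjusted p = 0.000625, edgeR). Pcdhgb4 gave 11.4, 11.7 and 9.93 CPM against 5.93, 6.99 and 6.83 CPM, or 0.74 ± 0.15. Pcdhga4 gave 7.70, 7.18 and 7.04 CPM against 3.69, 4.82 and 3.39 CPM, or 0.88 ± 0.19. Neither overlapped between the genotypes, with adjusted p of 0.00153 and 0.00256 by edgeR. Pcdhga6 was higher by 0.62 ± 0.21, the smallest rise among the 12 higher members, and it was no longer called by DESeq2 or without RepB-/- replicate 1, RepB-/- replicate 2 or WT replicate 2.

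The lower gamma genes were Pcdhga11, Pcdhga8, Pcdhgb8, Pcdhgb5, Pcdhgb6 and Pcdhgb2. Pcdhga11 fell from 2.57, 1.98 and 3.21 CPM in WT to 1.121, 0.723 and 0.811 CPM in RepB-/-. That is a log2 fold change of -1.54 ± 0.34 (adjusted p = 0.00294, edgeR), the largest fall among the members. Pcdhgb8, which the annotation calls a polymorphic pseudogene, had 4.81, 4.76 and 2.79 CPM in WT and 1.53, 2.01 and 1.62 CPM in RepB-/-. Pcdhgb5 had 4.41, 5.63 and 5.58 CPM in WT and 3.16, 2.74 and 1.88 CPM in RepB-/-. The WT libraries of both lay above all mutant libraries, and the log2 fold changes were -1.25 ± 0.29 and -1.01 ± 0.24 (adjusted p = 0.00384 and 0.00481, edgeR).

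Pcdhga8 differed by -1.52 ± 0.46 on the log2 scale, Pcdhgb6 by -0.64 ± 0.21 and Pcdhgb2 by -0.49 ± 0.16. Without RepB-/- replicate 3 or without WT replicate 2 the number of lower gamma genes dropped from 6 to 3, since none of the 3 was then called. Pcdhga8 rested on 6, 21 and 25 counts in RepB-/- and on 17, 43 and 59 in WT, each set ordered by size.

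The direction differed along the cluster. Of the first 10 gamma genes, from Pcdhga1 to Pcdhgb4, 9 had a log2 fold change above 0, and the exception was Pcdhgb2. Of the 9 from Pcdhga8 to Pcdhga12, 8 were tested, 7 had a log2 fold change below 0 and 5 were lower, with a median of -0.83 beside 0.45 in the first 10. The exception was Pcdhga9 at 0.07. The gammaA and gammaB families alternate along the cluster, and both held higher and lower genes. Of the 11 tested gammaA genes 3 were higher and 2 lower, and of the 7 gammaB genes 1 was higher and 4 lower. Beside these counts, 19.4% of all genes tested were higher and 19.7% lower. Among the gammaB genes of the first 10, Pcdhgb4 was higher, Pcdhgb2 lower and Pcdhgb1 not called. The division by position was made after the values were seen, and it was not tested.

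The 3 gamma C-types did not pass the test. Pcdhgc3 had 51.4, 48.7 and 44.8 CPM in RepB-/- and 43.1, 45.3 and 46.2 CPM in WT, which overlap, with a log2 fold change of 0.11 ± 0.08 (adjusted p = 0.329, edgeR). Pcdhgc5 had 24.5 ± 2.95 CPM against 21.2 ± 0.473 CPM (SD, n = 3) and Pcdhgc4 2.57 ± 0.188 CPM against 2.35 ± 0.203 CPM. Their log2 fold changes were 0.21 ± 0.11 and 0.14 ± 0.26. Pcdhgc3 is the best counted of all members, with between 538 and 1008 counts a library, and it had the smallest SE among them.

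Of the alpha cluster only Pcdha10 reached enough counts to be tested. It had 31, 17 and 18 counts in RepB-/- and 4, 9 and 11 in WT, or 1.123 ± 0.396 CPM against 0.510 ± 0.171 CPM (SD, n = 3). The libraries did not overlap, but the gene did not pass the threshold, at a log2 fold change of 1.09 ± 0.45 (adjusted p = 0.0676, edgeR). Pcdhac2, a C-type, had 8, 9 and 7 counts in RepB-/- and 23, 5 and 13 in WT, with WT replicate 1 the highest. Pcdha12 had between 2 and 8 counts in every library, Pcdha5 at most 6, and Pcdha9 had 2, 6 and 2 in RepB-/- and 0 in all WT libraries. Another 9 alpha genes never exceeded 3 counts in any MEF library, among them the C-type Pcdhac1 with 1 count in all, and Pcdha2 had none. At these depths 3 counts stand for 0.152 to 0.241 CPM, and differences below that were not detectable. The summed alpha level overlapped between the genotypes, at 2.16 ± 0.347 CPM in RepB-/- and 2.11 ± 0.595 CPM in WT, with Pcdha10 the highest alpha gene in each RepB-/- library.

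**Figure D3:**
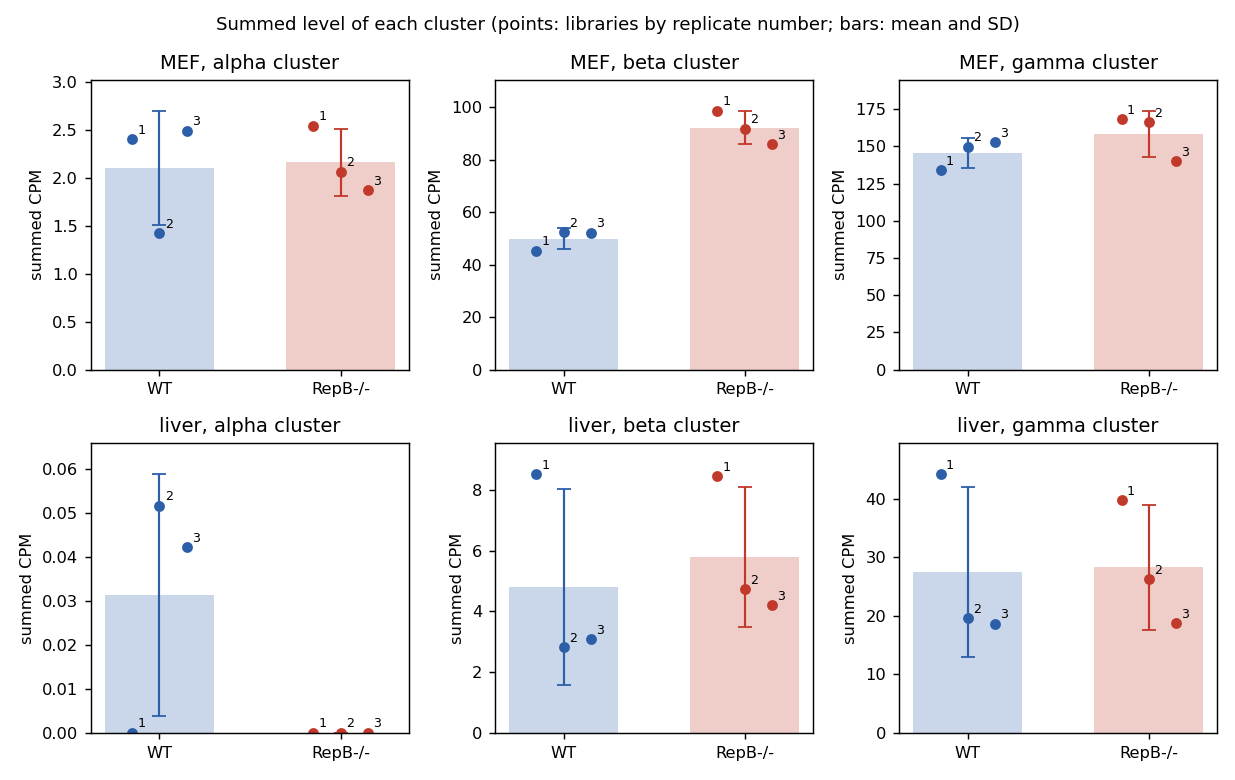
Summed CPM of each cluster (columns) in MEFs (top) and liver (bottom), with a point for each library, numbered by replicate, and bars for the mean and SD of each genotype; axes start at 0 and differ in scale. In MEFs the beta sums lie between 86.0 and 98.7 CPM in RepB-/- and between 45.4 and 52.3 CPM in WT, while the other 5 panels overlap.

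Markers of other cells were measured beside these results, since neurons and glia express clustered protocadherins. The 8 neuronal markers summed to 12.1 to 13.8 CPM in RepB-/- MEFs and 20.5 to 28.8 CPM in WT, where 2 of 3 tested were lower. The 6 Schwann cell and glia markers summed to 4.89 to 6.49 CPM in RepB-/- and 8.82 to 12.3 CPM in WT with 3 of 6 lower, and the 5 endothelial markers to 22.7 to 26.1 and 36.7 to 44.6 CPM with 4 lower and Tek higher. The neuronal markers Snap25, Rbfox3, Elavl3, Dcx and Syt1 were too low to test in either genotype. These sums and the larger share of genes at 0 in RepB-/- move with the lower gamma genes. Macrophage markers, at 17.2 to 21.0 CPM in RepB-/- and 10.51 to 11.9 CPM in WT with 2 of 2 tested higher, and keratinocyte markers, at 3.50 to 8.92 and 1.68 to 3.21 CPM with Krt14 higher, move with the higher beta genes. Any sum that separates the genotypes moves with the called members of its own direction and against those of the other. The part of these cells in either set of members was not tested. Beside these counts, 19.4% of all genes tested in MEFs were higher and 19.7% lower. Of the fibroblast markers 4 of 8 were higher, namely Col1a1, Col3a1, Pdgfra and Dcn, and Thy1 was lower. Their sum, 14137 to 17186 CPM in RepB-/- and 9682 to 12734 CPM in WT, also moved with the higher beta genes. Its part in them was not tested.

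Genes that control the clusters were read from the same fit. Of 27 architectural and chromatin genes 12 were higher and 3 lower, where 19.4% of all genes tested were higher and 19.7% lower. This list was not sorted by chromosome, so X-linked genes, which the paper reports as partly reactivated, are not set apart in it. Ctcf, at 59.96 ± 0.903 CPM in RepB-/- and 54.1 ± 4.18 CPM in WT, was not called, nor was the cohesin subunit Rad21 (adjusted p = 0.145 and 0.159, edgeR). The cohesin subunits Smc1a, Smc3, Stag1 and Stag2 were higher, with log2 fold changes from 0.59 for Stag1 to 0.91 for Stag2, as were the loader Nipbl and the regulator Pds5b. Smchd1, the silencer of these clusters, was higher by 0.48 ± 0.09, at 51.4 ± 3.94 CPM against 36.8 ± 1.502 CPM, and its partner Lrif1 by 0.59 ± 0.16. The methylation genes moved both ways: the maintenance pair Dnmt1 and Uhrf1 rose by 0.62 ± 0.08 and 0.82 ± 0.10, the de novo enzyme Dnmt3a fell by 0.50, and the demethylating enzymes Tet1 and Tet3 fell by 1.16 and 1.05. Dnmt3b, the enzyme known for methylating protocadherin promoters in the embryo, was at 3.16 ± 0.846 and 3.91 ± 1.29 CPM and was not called. Trim28 and Atf7ip, of the H3K9 methylation pathway, were higher by 0.30 and 0.27.

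Other cadherins and the genes beside the clusters gave no common direction, where 19.4% of all genes tested were higher and 19.7% lower. Of 12 protocadherin genes outside the clusters 6 were tested, Pcdh9 was higher by 1.17 ± 0.22 and Pcdh1, Pcdh17, Pcdh18 and Pcdh19 were lower. Of 11 classical cadherins 9 were tested, with Cdh13 higher and Cdh5, Cdh6 and Cdh10 lower, and of the 6 giant protocadherins 4 were tested, with Fat4 and Dchs2 higher and Fat1 and Dchs1 lower. Among genes that bind, signal from or cleave clustered protocadherins, those higher included Adam10, Nckap1, Cyfip1 and Abi2, and Cyfip2, Axin1, Fyn and Ptk2b were lower. Of 14 tested flanking genes Zmat2 and Ik, before the alpha cluster, were higher, and Dnd1, Taf7 and Arap3 were lower. Taf7, a subunit of the general transcription factor TFIID that lies between the beta and gamma clusters and 17.6 kb before Pcdhga1, stood at 3.02 ± 0.247 CPM in RepB-/- and 6.11 ± 1.57 CPM in WT, a log2 fold change of -1.005 ± 0.23. Diaph1, 1.73 kb beyond the gamma cluster, differed by -0.11 ± 0.07 and was not called.

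In liver the cluster sums were lower in CPM than in MEFs, and no member passed the test. The difference in level between the tissues was not tested, since their counts use different genome builds and gene lists. No alpha gene exceeded 2 counts in any liver, and the alpha cluster had 0 counts in all 3 RepB-/- libraries and 0, 2 and 2 in WT, all of them Pcdhac2. In these livers 3 counts stand for 0.0592 to 0.0875 CPM, and differences below that were not detectable. The beta sum was 8.45, 4.73 and 4.1999 CPM in RepB-/- and 8.52, 2.82 and 3.08 CPM in WT, and the gamma sum was 39.7, 26.3 and 18.8 CPM and 44.2, 19.5 and 18.6 CPM. Both were highest in replicate 1 of each genotype, the livers with fetal markers, and overlapped between the genotypes, also without the library labelled RepB-/- replicate 2.

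Of the 58 members 26 could be tested in liver and none was called by edgeR, where 6 of 16080 genes, 0.0373%, were called, 0.00622% higher and 0.0311% lower. With the replicate number as a block or with a term for replicate 1 none of the members was called either, beside 0.0498% and 0.056% of all genes. Without the library labelled RepB-/- replicate 2 none of 30 tested members was called by edgeR and 6 stood at an unadjusted p under 0.05, beside 2.74% of all genes. The biological coefficient of variation was 51.2% in liver and 9.06% in MEFs. At an unadjusted p under 0.05 stood 5 members, beside 3.12% of all genes. They were Pcdhga6, Pcdhgb7 and Pcdhgb8, higher in RepB-/-, and Pcdhgb4 and Pcdhgc3, lower. DESeq2 called Pcdhgb7 and Pcdhgb8, and 80 genes in all. The 5 are given here because of these values, and every one had libraries that did not overlap between the genotypes, as did 3.38% of genes above WT and 4.66% below.

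Pcdhgc3 led the WT livers at 2.31 CPM per kb, followed by Pcdhgb6 at 0.367, while in RepB-/- livers Pcdhgb8 at 1.02 and Pcdhgc3 at 0.983 came first. Its CPM was 12.9, 13.0 and 12.3 in WT and 5.04, 7.59 and 3.59 in RepB-/-. The WT livers, the one with fetal markers included, had an SD of 0.362 CPM (n = 3), and each mutant liver was lower. The log2 fold change was -1.23 ± 0.31 with an unadjusted p of 0.00604 and an adjusted p of 1.00 by edgeR, so it failed the correction, and it was -1.17 over replicates 2 and 3 alone and -1.56 without the library labelled RepB-/- replicate 2. Pcdhgc4 and Pcdhgc5, which did not pass the filter on low counts, gave another pattern. Pcdhgc5 had 293 counts in WT replicate 1 and 146 in RepB-/- replicate 1 and between 1 and 5 in the other 4 livers. Pcdhgc4 had 262 counts in WT replicate 1, 44 in RepB-/- replicate 3, 10 in RepB-/- replicate 1 and at most 4 elsewhere. The high libraries were thus mainly those with fetal hepatoblast markers, and the part of those cells in the values was not tested.

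Pcdhgb7 had 2.13, 1.13 and 1.31 CPM in RepB-/- and 0.134, 0.207 and 0.0422 CPM in WT. Each mutant liver was above each WT liver, with a log2 fold change of 3.57 ± 0.68 and an adjusted p of 0.700 by edgeR, and 3.74 without the library labelled RepB-/- replicate 2. Pcdhgb8 had 1.86, 10.8 and 1.43 CPM in RepB-/- and 0.223, 0 and 0.127 CPM in WT. Its high value came from the library labelled RepB-/- replicate 2, where Y-linked genes were counted, with 546 counts against 94 and 49. The log2 fold change of 5.28 ± 1.32 did not pass the threshold, and it was 3.77 without that library. In MEFs neither was higher in RepB-/-: Pcdhgb8 was lower, and Pcdhgb7 differed by -0.27 ± 0.31.

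Several other gamma genes also had their highest count in replicate 1, the livers with fetal markers. Pcdhgb6, Pcdhgb2 and Pcdhga7 did so in WT, at 169, 107 and 92 counts, and Pcdhgb5 in RepB-/-, at 205. Others did not: Pcdhga12 was highest in the library labelled RepB-/- replicate 2, at 172, and Pcdhga11 in WT replicate 2, at 33. Pcdhgb1 had 464 counts and Pcdhga4 338 counts in RepB-/- replicate 1, against 4 to 35 and 2 to 47 in the other 5 livers. Pcdhga9 had 140 counts in WT replicate 1 and at most 16 elsewhere. The genes named so far in this paragraph were picked out after the values were seen, and the part of fetal cells in their counts was not tested. In the other direction Pcdhgb4 was at 0.692, 0.956 and 0.908 CPM in WT and at 0.316, 0.258 and 0.0583 CPM in RepB-/-, a log2 fold change of -1.97 ± 0.65 with an adjusted p of 1.00 by edgeR, and -2.14 without the library labelled RepB-/- replicate 2.

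**Figure D4:**
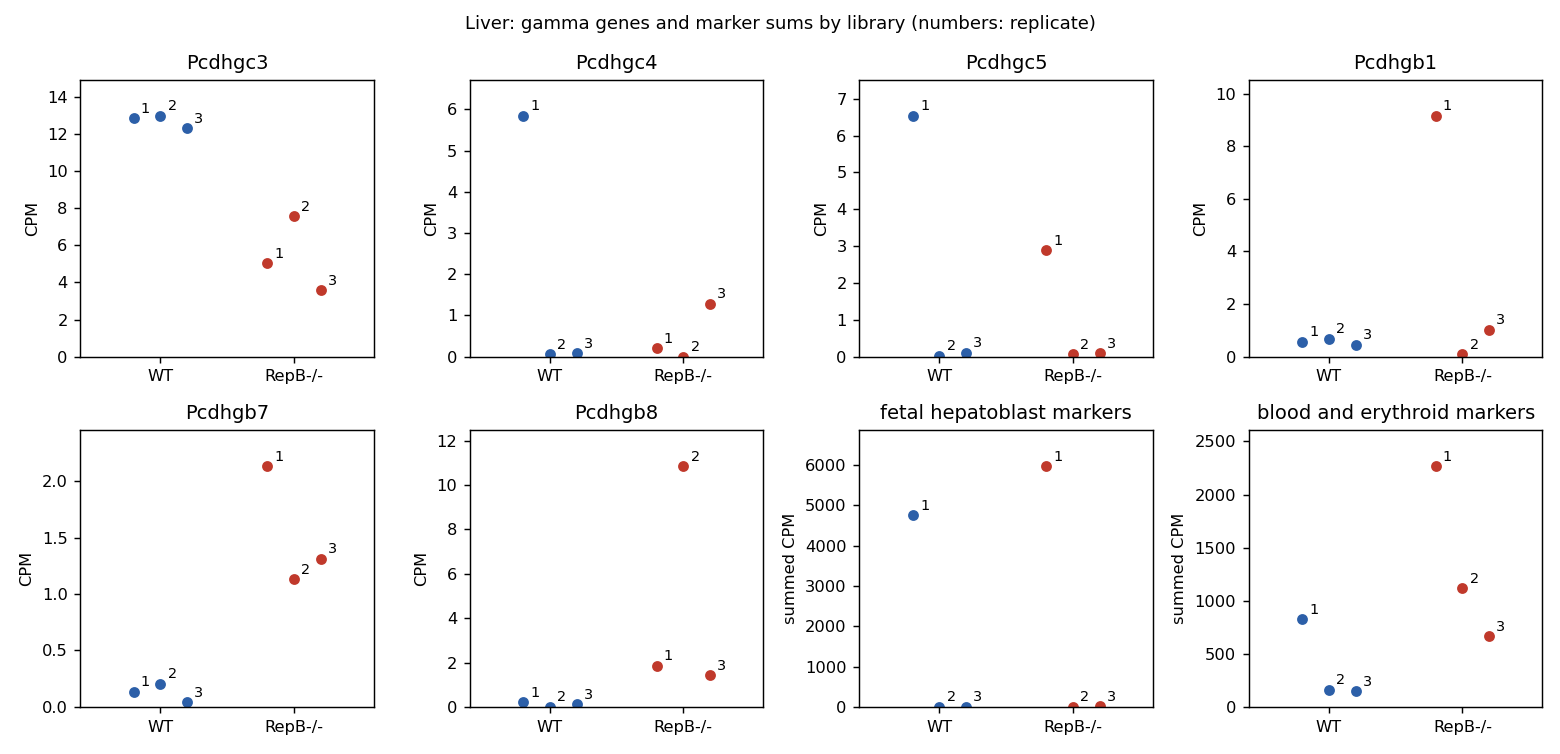
Levels of 6 gamma genes in the liver libraries in CPM, and the summed CPM of fetal hepatoblast markers and of blood and erythroid markers, by genotype, with points numbered by replicate. Pcdhgc3 is between 12.3 and 13.0 CPM in WT and at most 7.59 CPM in RepB-/-, Pcdhgc5 and the fetal markers are high in replicate 1 of both genotypes, and Pcdhgb8 is highest in the library labelled RepB-/- replicate 2.

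**Figure D5:**
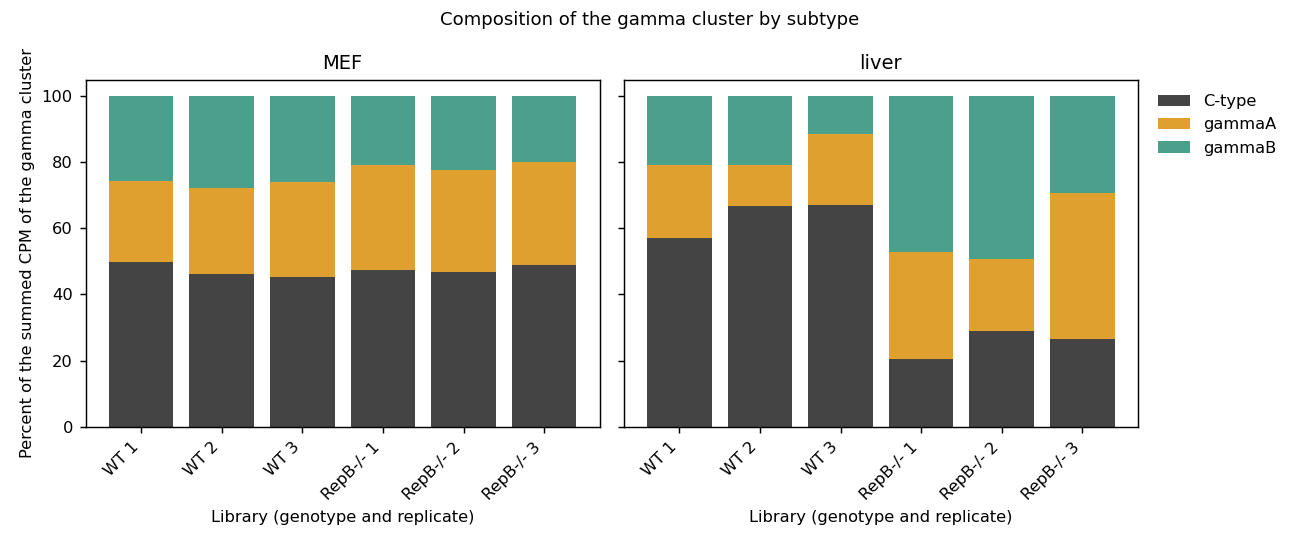
Percent of the summed gamma level in each library that came from C-type, gammaA and gammaB genes, in MEFs (left) and liver (right). C-types make up 45.4% to 49.7% in every MEF library, and in liver 57.2% to 67.1% in WT and 20.4% to 29.1% in RepB-/-.

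C-types supplied 57.2%, 66.9% and 67.1% of the gamma sum in the WT livers and 20.4%, 29.1% and 26.4% in the RepB-/- livers. GammaB genes supplied 20.9%, 20.8% and 11.3% in WT and 47.3%, 49.1% and 29.2% in RepB-/-, so neither share overlapped between the genotypes, and a share over members was given no test. Single genes carried part of this. In WT replicate 1, a liver with fetal markers, Pcdhgc4 supplied 13.2% and Pcdhgc5 14.8%, and each supplied at most 0.567% in the other WT livers. Pcdhgc3 alone supplied 29.1%, 66.5% and 66.1% in WT and 12.7%, 28.9% and 19.1% in RepB-/-. On Pcdhgc3 alone, WT replicate 1 thus lay only just above the library labelled RepB-/- replicate 2. Without Pcdhgb8 the gammaB share was 44.7%, 13.4% and 23.4% in RepB-/- and 20.5%, 20.8% and 10.7% in WT, which overlap. The overlap came from the 13.4% of the library labelled RepB-/- replicate 2, and the other RepB-/- livers lay above every WT liver. With all genes counted, neither share overlapped without that library. The C-type share without Pcdhgb8 was 21.5%, 49.5% and 28.6% in RepB-/- and 57.5%, 66.9% and 67.6% in WT. It did not overlap without Pcdhgb1 and Pcdhgb8 either. This was computed after the values were seen. In MEFs the C-type shares overlapped. The gammaB share of MEFs was 19.96% to 22.3% in RepB-/- and 25.5% to 27.7% in WT, the opposite order to the liver libraries with all genes counted. Blood and erythroid markers summed to 2267, 1119 and 669 CPM in the RepB-/- livers and to 824, 161 and 147 CPM in the WT livers, with Hba-a1, an alpha globin gene, the largest part. None of the 5 was called, and their part in the liver values was not tested.

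The 10 tested beta genes of liver ranged from -0.70 to 1.31 in log2 fold change, with a median of -0.24. Pcdhb22, the leading beta gene of MEFs, had 1.599, 0.616 and 0.787 CPM in RepB-/- livers and 0.803, 0.362 and 0.0422 CPM in WT livers, or 1.31 ± 0.94. Pcdhb17 had 0.621 ± 0.220 CPM against 0.761 ± 0.595 CPM (SD, n = 3), Pcdhb20 0.601 ± 0.318 CPM against 0.370 ± 0.405 CPM and Pcdhb11 0.341 ± 0.135 CPM against 0.392 ± 0.259 CPM. The libraries of the genotypes overlapped in all 4. Of the genes that control the clusters, Ctcf, Rad21, Smchd1 and Dnmt3b were at 23.8, 57.3, 12.5 and 9.13 CPM on average in RepB-/- livers and at 27.5, 54.5, 11.8 and 12.2 CPM in WT livers, and Taf7 was at 8.83 and 10.4 CPM. None of the genes on any of these lists was called in liver.

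Whether the genotype effect of a member differed between MEFs and liver was tested as an interaction of genotype and tissue over all 12 libraries. This model gave each gene 1 spread for both tissues, although the biological coefficient of variation was 51.2% in liver and 9.06% in MEFs. P-values of the interaction may thus understate the spread between livers. Of the 41 members tested none passed, where 59 of 15208 genes, 0.388%, did, and 6 members had an unadjusted p under 0.05, as did 14.2% of all genes. Pcdhgb7 came closest, at -3.84 ± 0.72 for the MEF effect minus the liver effect (adjusted p = 0.0571, edgeR). Pcdhgb8 followed at -6.56 ± 1.32 (adjusted p = 0.0676) and Pcdhgb4 at 2.695 ± 0.58 (adjusted p = 0.0818). Pcdhgb4 was higher in RepB-/- MEFs and lay below all WT livers in RepB-/- livers. Without WT liver replicate 1 these 3 passed the threshold, without RepB-/- liver replicate 1 Pcdhgb4 and Pcdhgb8 did, without replicate 3 Pcdhgb4 did, and without replicate 2 Pcdhgc3 did, at 1.69, so the count of 0 depends on which livers are included.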

How the data were processed

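The authors' deposited tables hold whole-number read counts per gene and library, without normalization, in GRCm39 (MEF) and GRCm38 (liver) coordinates. The study's methods name Cutadapt and Hisat2 and stranded libraries, while the submitters' processing notes name Trim Galore 0.4.1, STAR 2.7.0 and HTSeq 0.12.4; which made which table, and whether strand was used, is not given in the sources used here. A further 18 columns of per-library values were left unused.

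Each tissue was fitted by itself in edgeR 4.0.16 (R 4.3.3) with TMM scaling, filterByExpr, the quasi-likelihood test and Benjamini-Hochberg adjustment over all genes tested, at 0.05. Genotype effects of the tissues were compared in 1 interaction model over the 21694 genes in both tables. SE is the log2 fold change divided by the root of F. CPM uses TMM-scaled totals. The scripts were tested on simulated data. The floor was 3 counts in a library, and floors cover counting error alone. Exon sharing was measured in GENCODE M21.

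Members and lists were chosen with earlier results of these data known. Named members were those called in either tissue, the 4 highest by mean CPM in each cluster and tissue, and the C-types; of the other lists, the called genes (an item of these is not reported here) and Ctcf, Rad21, Smchd1, Dnmt3b and Taf7. Marker lists for keratinocytes, muscle, macrophages, cholangiocytes and hepatic stellate cells were also counted. Same-numbered livers deviated together (correlations 0.71, 0.36 and 0.37 over genes after removing genotype means). A pairing by number, read from the data alone, entered only an alternative fit with replicate number as a block, and the main fit had no block. RepB-/- replicates 2 and 3 of liver were each closest to the other's WT number. Alternatives were DESeq2 1.42.0, its size factors in edgeR, no filter, replicate number as a block, a term for replicate 1 of liver and leaving out each library; replicates 2 and 3 of liver alone were an alternative chosen after seeing the data. No sequence is printed.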

Additional observations from a re-analysis of the deposited data

How the results depend on the processing

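All 18 calls in MEFs kept their direction under all 10 alternatives, and 11 were called under each: Pcdhb14, Pcdhb16, Pcdhb17, Pcdhb20, Pcdhb22, Pcdhga4, Pcdhga7, Pcdhgb4, Pcdhgb5, Pcdhga11 and Pcdhgb8. Pcdhgb2 held least, in 5 of 10. Leaving out single MEF libraries gave 13 to 17 called members, with 5 to 9 higher beta genes, 3 to 5 higher gamma genes and 3 to 6 lower ones, and DESeq2 gave 16 called members. The MEF numbers do not pair the libraries (correlations of -0.01, -0.04 and -0.003, and no library was closest to its own number), and a replicate block left 18 members called in MEFs and none in liver or in the interaction.

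The summed alpha change in MEFs was 0.04 on the log2 scale, 1.14 over the member that passed the filter and 1.09 as its fitted change, and -0.18 to 0.18 with single libraries left out. The median over tested members was 0.74 for beta in MEFs against a summed 0.88, and 1.17 for gamma in liver against a summed 0.04. In liver the count of called genes was 6, and it was 0 without a filter on low counts, 80 by DESeq2, 2 over replicates 2 and 3 alone and 0 to 4 with single libraries left out. Called members in liver were 0 under every alternative but DESeq2, which called 2. The interaction gave 0 to 3 called members with single libraries left out: Pcdhgb4 and Pcdhgb8 without RepB-/- liver replicate 1, Pcdhgc3 without RepB-/- liver replicate 2, Pcdhgb4 without RepB-/- liver replicate 3, and Pcdhgb4, Pcdhgb7 and Pcdhgb8 without WT liver replicate 1. The causes were not tested.

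Some uncalled liver changes turned sign: Pcdhb11 from -0.20 to 0.0039 without RepB-/- replicate 2, 0.49 without WT replicate 1 and 0.12 over replicates 2 and 3 alone, with a range of -0.57 to 0.49 over single libraries left out. Pcdhb17 went from -0.29 to 0.54 and 0.31 under the latter settings (range -0.67 to 0.54), and Pcdhgb1 from 2.61 to -0.042 without RepB-/- replicate 1 and -0.056 over replicates 2 and 3 alone (range -0.042 to 3.18).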

Other observations

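Marker lists of other cell types were counted in MEFs beside those of the report. The macrophage markers that were higher were Adgre1 and Csf1r. Muscle markers summed to 58.1 to 65.0 CPM in RepB-/- and 122 to 191 CPM in WT, where Acta1 was lower by 1.74 ± 0.15 on the log2 scale. Krt7 was higher and Krt19 lower among the 4 cholangiocyte markers, Ngfr was lower among the 4 tested stellate cell markers, Dlk1 was higher and Gpc3 lower among the fetal hepatoblast markers, and no blood marker was called. In liver, fibroblast markers summed to 1349 and 892 CPM in replicate 1 of RepB-/- and WT and to 257 to 468 CPM in the other 4 livers, the same 2 libraries in which both the beta and the gamma sums were highest.

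In the liver table more genes were listed at 4 counts, 676 to 770 a library, than at 3, 436 to 491, or at 5, 289 to 341, whereas in the MEF table the number fell from 3 to 4 to 5 in every library. Low liver counts of the protocadherins come from the same table.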
